A study of Mus musculus with 5 samples.

Results

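The genes described are 49 DNA replication and nucleotide synthesis genes of the mouse, out of 31626 genes listed in each of 5 RNA sequencing libraries. They were selected by name, for roles in origin licensing, replication forks, chromatin assembly, deoxynucleotide supply and E2F control of S phase. The rule uses no measured value, but the list was chosen with earlier results of these data known. The libraries came from common myeloid progenitors (CMP), the bone marrow precursors of the granulocyte, monocyte, red cell and platelet lines, of strain C57Bl/6. All cells of both groups had been transformed with the retroviral vector MSCV-MN1-IRES-GFP, a carrier of the leukaemia gene MN1 and of GFP on 1 transcript, and grew in methylcellulose medium M3234 with FBS, IL3, IL6 and SCF. The 3 control libraries came from MLL1 flox/flox cells transduced with a control, and the 2 knockout libraries from cells labelled MLL1 -/- after transduction with cre, both at day 7 after it. Cells with unfloxed Mll1 and cre were not analysed here, and an effect of cre cannot be told apart from one of losing Mll1. The labels do not say whether the replicates are separate cultures or animals, so p-values measure the spread between these libraries, which may be technical.

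Origins are licensed in G1, when the origin recognition complex, Cdc6 and Cdt1 load the Mcm2 to Mcm7 helicase onto DNA, and geminin blocks a new round of loading once S phase has begun. In S phase Cdc45 and the GINS complex turn the helicase on, polymerase alpha with primase lays down primers, and polymerases delta and epsilon copy the strands on the PCNA clamp. Most of these genes, with those for deoxynucleotide synthesis, are transcribed as cells enter S phase under E2F factors, of which E2f1 and E2f2 activate and E2f7 and E2f8 repress. In blood progenitors these RNAs are known as markers of cycling cells. MLL1 (gene Mll1, current symbol Kmt2a) is a histone H3 lysine methyltransferase that keeps Hox genes active in blood stem and progenitor cells.

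Every member was found in the files, 46 under its current symbol and 3 through its gene ID, since Orc1, Orc2 and Orc6 are listed as Orc1l, Orc2l and Orc6l. None held a failed estimate, and all 49 passed the low-value filter (1 FPKM or more in 2 or more libraries), as did 11780 genes in all. FPKM are fragments per kilobase of transcript, scaled to library size, so levels can be compared between genes. Library values of the members ran from 5.31 FPKM for E2f2 to 365.6 FPKM for Dut, and the median of the member means was 54.6 FPKM, against 14.3 FPKM over the genes tested. Exons of 16 members lie over exons of a gene on the opposite strand in the annotation (Chaf1a, E2f7, E2f8, Fen1, Gins2, Lig1, Mcm7, Orc1, Orc2, Orc6, Pole, Rfc2, Rfc4, Rfc5, Slbp and Tk1). Pole2 shares exons with a protein-coding gene on its own strand, and Mcm7 and Rpa1 with miRNA genes on theirs. Pcna and Tyms have annotated pseudogenes. The values of all these members are less certain.

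Mll1 itself measured 9.67, 7.28 and 7.19 FPKM across the controls, given here and below in the order of replicate number. Knockout values were 6.22 and 5.32 FPKM, both lower than each control but not near 0. An exact two-sided permutation test gave p = 0.1, the smallest that 3 against 2 libraries allow, and limma gave an adjusted p of 0.158. Absolute depth is unknown, and the commonest ratio of low values to those of control replicate 1, read as the relative worth of 1 fragment, was 0.98 to 1.018. Genes listed at 0 numbered 11672, 13004 and 13045 across the controls, and 12695 and 13061 in the knockouts. Control replicate 1 stood apart from controls 2 and 3. Over the members, its median absolute log2 distance was 0.233 from control 2 and 0.22 from control 3, against 0.075 between controls 2 and 3 and 0.077 between the knockouts. Over all genes the distances of control 1 were the same, 0.233 and 0.22, against 0.114 between controls 2 and 3 and 0.073 between the knockouts. Markers of the labelled cell type were present. Kit measured 111.5, 75.4 and 64.6 FPKM across the controls, with knockout values of 61.0 and 57.1 FPKM, below every control but not called. Cd34 measured 684.8, 600.3 and 586.6 FPKM across the controls, with knockout values of 216.4 and 211.5 FPKM, and was called lower. Of 10 myeloid progenitor markers 4 were called higher (Mpo, Gata2, Spi1 and Prtn3) and 1 lower (Cd34). Their sums were 3416 to 4267 FPKM across the controls, and 6236 and 6618 FPKM for the knockouts. Most of that rise lay in Mpo, Elane and Prtn3. Differences were positive for 6 of the markers and negative for 4, namely Kit, Cd34, Myb and Cebpa. The summed level of 12 mature neutrophil markers was 6414 FPKM for control 1, against 794 and 1055 FPKM for the other controls, and 22428 and 20694 FPKM for the knockouts. S100a8 and S100a9 made up most of these sums, with S100a8 at 3128.7 FPKM in control 1, 347.0 and 484.7 FPKM in controls 2 and 3, and 11793.9 and 10986.2 FPKM in the knockouts. Camp, Ngp and Ltf were highest in control 1, with Ngp at 106.0 FPKM there, 4.05 and 4.52 FPKM in the other controls, and 64.7 and 58.3 FPKM in the knockouts. Of 11 tested, 10 had a positive difference and 1, Lcn2, was called higher, whereas without control 1 it was 9 higher and 1 lower. The lower one, Mmp8, was lowest in control 1, at 38.7 FPKM. It measured 65.0 and 64.3 FPKM in the other controls and 52.5 and 54.4 FPKM in the knockouts. Cxcr2 in control 1 (1.44 FPKM) lay between the other controls (1.99 and 1.24 FPKM). Ly6g was listed at 0 in control 1. For 12 erythroid markers the sums were 171, 143 and 141 FPKM across the controls, with knockout values of 172 and 186 FPKM, and 3 of 9 tested were called higher (5 without control 1). The sums of 12 lymphoid markers were 40.4 to 55.9 FPKM for controls and 5.54 to 6.71 FPKM for knockouts. Both lymphoid markers tested, Rag2 and Thy1, were called lower, and Cd3g, Cd8a and Pax5 were listed at 0 in every library. The sums of 10 stromal markers were 228 to 251 FPKM for controls and 297 to 318 FPKM for knockouts, nearly all of it Vim, which is not confined to stroma (223.3 to 246.5 and 288.8 to 311.0 FPKM). None of the 4 stromal markers tested was called (3 at an unadjusted p under 0.05, and 2 called higher without control 1). Pdgfrb had a negative difference of -0.52, and Dcn and Lum were listed at 0 throughout. The part of these markers in the values below was not tested, and in bulk RNA fewer cycling cells and less RNA per cell cannot be told apart.

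Promoter sequences show a feature that a part of the members shared. The members were named for roles that include E2F control of S phase. A share of E2F-type words above that of all genes is therefore not independent of how the list was chosen. RefSeq start sites were matched for 41 of the 49 members, each with a window of 300 bases, 250 before to 50 after the start (build GRCm38.p6). The windows were searched on both strands for the E2F-type words TTTCCCGC, TTTCGCGC, TTTGCCGC and TTTGGCGC, some of which can overlap on opposite strands. At least 1 word lay in a window of 17 of the 41 members (41.5%), against 704 of 27025 genes (2.6%). By window, 17 of 48 windows of members held a word (35.4%), against 2.26% of all 32851. The CCAAT word lay in windows of 25 members (61.0%), against 41.1% of all genes. Some members with a word upstream of the start are printed, as the 180 bases before the start, 5′ to 3′ in the direction of the gene, with the words as read on that strand in capitals. Cdc6 and Pola1 are shown because they had the smallest adjusted p-values with opposite signs (below), and both hold a word whose first base lies at -138. Orc1, Mcm5, Mcm6 and Rfc3 are examples of licensing, helicase and clamp loader genes with such a word, and do not represent their groups. The windows of Orc2, Orc6, Mcm2, Rfc4 and Rfc5 held none. A match describes letters and is not a measured binding site, and the windows were not matched for base composition.
Cdc6, chr11:98907971-98908150, plus strand: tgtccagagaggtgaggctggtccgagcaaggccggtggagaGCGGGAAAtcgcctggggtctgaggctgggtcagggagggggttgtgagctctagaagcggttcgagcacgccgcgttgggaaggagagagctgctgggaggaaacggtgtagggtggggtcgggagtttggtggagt
Orc1, chr4:108579274-108579453, plus strand: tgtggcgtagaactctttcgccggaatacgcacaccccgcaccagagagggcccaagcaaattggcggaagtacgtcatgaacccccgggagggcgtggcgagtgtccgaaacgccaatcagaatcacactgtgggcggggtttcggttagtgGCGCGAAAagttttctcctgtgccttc
Mcm5, chr8:75109329-75109508, plus strand: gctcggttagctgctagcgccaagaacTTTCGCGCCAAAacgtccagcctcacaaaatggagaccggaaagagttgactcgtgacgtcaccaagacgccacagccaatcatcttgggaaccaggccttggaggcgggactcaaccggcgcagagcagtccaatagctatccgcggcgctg
Mcm6, chr1:128359706-128359885, minus strand: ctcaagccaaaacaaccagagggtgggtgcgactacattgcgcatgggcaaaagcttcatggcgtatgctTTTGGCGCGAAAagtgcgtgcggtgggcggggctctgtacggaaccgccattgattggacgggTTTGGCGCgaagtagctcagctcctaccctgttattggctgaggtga
Pola1, chrX:93632156-93632335, minus strand: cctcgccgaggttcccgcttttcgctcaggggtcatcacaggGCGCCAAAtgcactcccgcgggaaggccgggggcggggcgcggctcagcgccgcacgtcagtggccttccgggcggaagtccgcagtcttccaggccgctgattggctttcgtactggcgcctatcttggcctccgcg
Rfc3, chr5:151651209-151651388, minus strand: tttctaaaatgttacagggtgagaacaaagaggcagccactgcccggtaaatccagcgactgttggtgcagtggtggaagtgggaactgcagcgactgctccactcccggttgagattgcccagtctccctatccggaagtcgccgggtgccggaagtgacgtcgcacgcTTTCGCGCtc
In Mcm6 one word starts at -110, is overlapped by another on the opposite strand at -106, and a further word starts at -47. Mcm5 has an overlapping pair at -153 and -149, Orc1 a word at -27 and Rfc3 a word at -10. Rrm2 and E2f8, which also had large positive differences among the members, held none of these words in their windows.

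No member was called in the comparison of knockout with control. The test was limma on log2(FPKM + 1) over all 11780 genes, with a call at a Benjamini-Hochberg adjusted p under 0.05. Of all genes, 9.79% were called (3.82% higher, 5.97% lower in the knockouts), against 0 of 49 members. Scaling moved the split over all genes from 450 higher and 703 lower to 597 and 621 with median ratios, where Cdc6 was called higher. At an unadjusted p under 0.05 the count was 8 of 49 members, which is 16.3%, against 29.8% of all genes. The median log2 difference, knockout minus control, was 0.03 over the members and -0.03 over all genes tested. Without its sign, the median difference was 0.11 for the members, 0.22 for all genes and 0.20 for genes averaging 5 FPKM or more. The largest of the members were -0.45 for Mcm8 and 0.46 for Rrm2, whereas 13.3% of all genes lay between 0.5 and 1 and 5.9% at 1 or more.

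**Figure D1:**
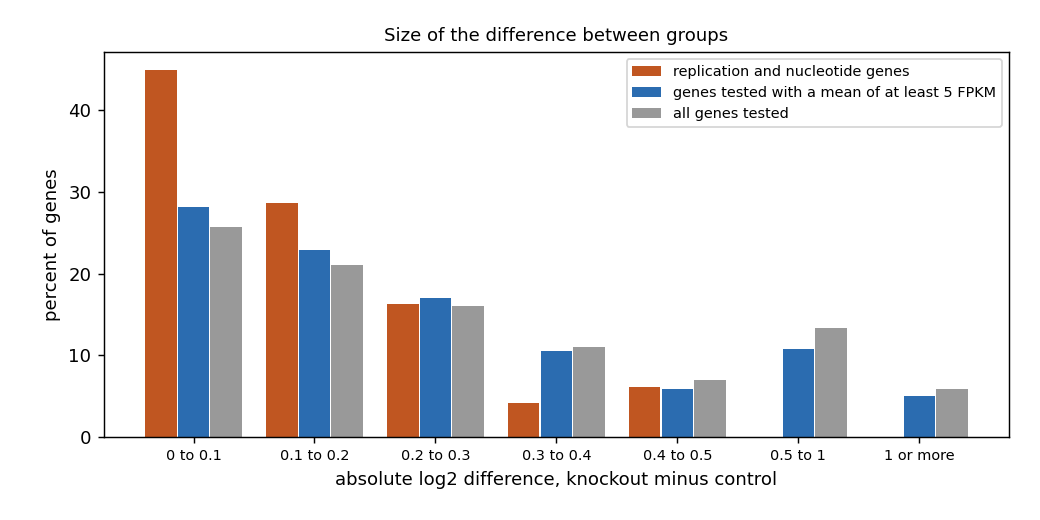
Percent of genes (vertical axis) by absolute log2 difference between knockout and control (horizontal axis), for the 49 members, for genes averaging 5 FPKM or more and for all genes tested. The members fill the bins below 0.5, with 44.9% below 0.1 against 25.7% of all genes.

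Intervals bound the size of a difference. The 95% interval of the log2 difference lay within 2-fold in either direction for all 49 members, against 81.2% of all genes tested. Within 1.5-fold it lay for 37 members, against 51.8% of all genes. The 12 with wider intervals were Orc1, Cdc6, Cdt1, Mcm2, Mcm5, Mcm8, Pola1, Pold1, Pold3, Rfc2, Rrm2 and E2f8. Intervals are for 1 gene at a time and are not adjusted for the number of genes. Standard errors of the members ran from 0.064 (Rpa2) to 0.233 (Cdt1). With 1 knockout library left out, 46 or 47 members kept an interval within 2-fold.

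**Figure D2:**
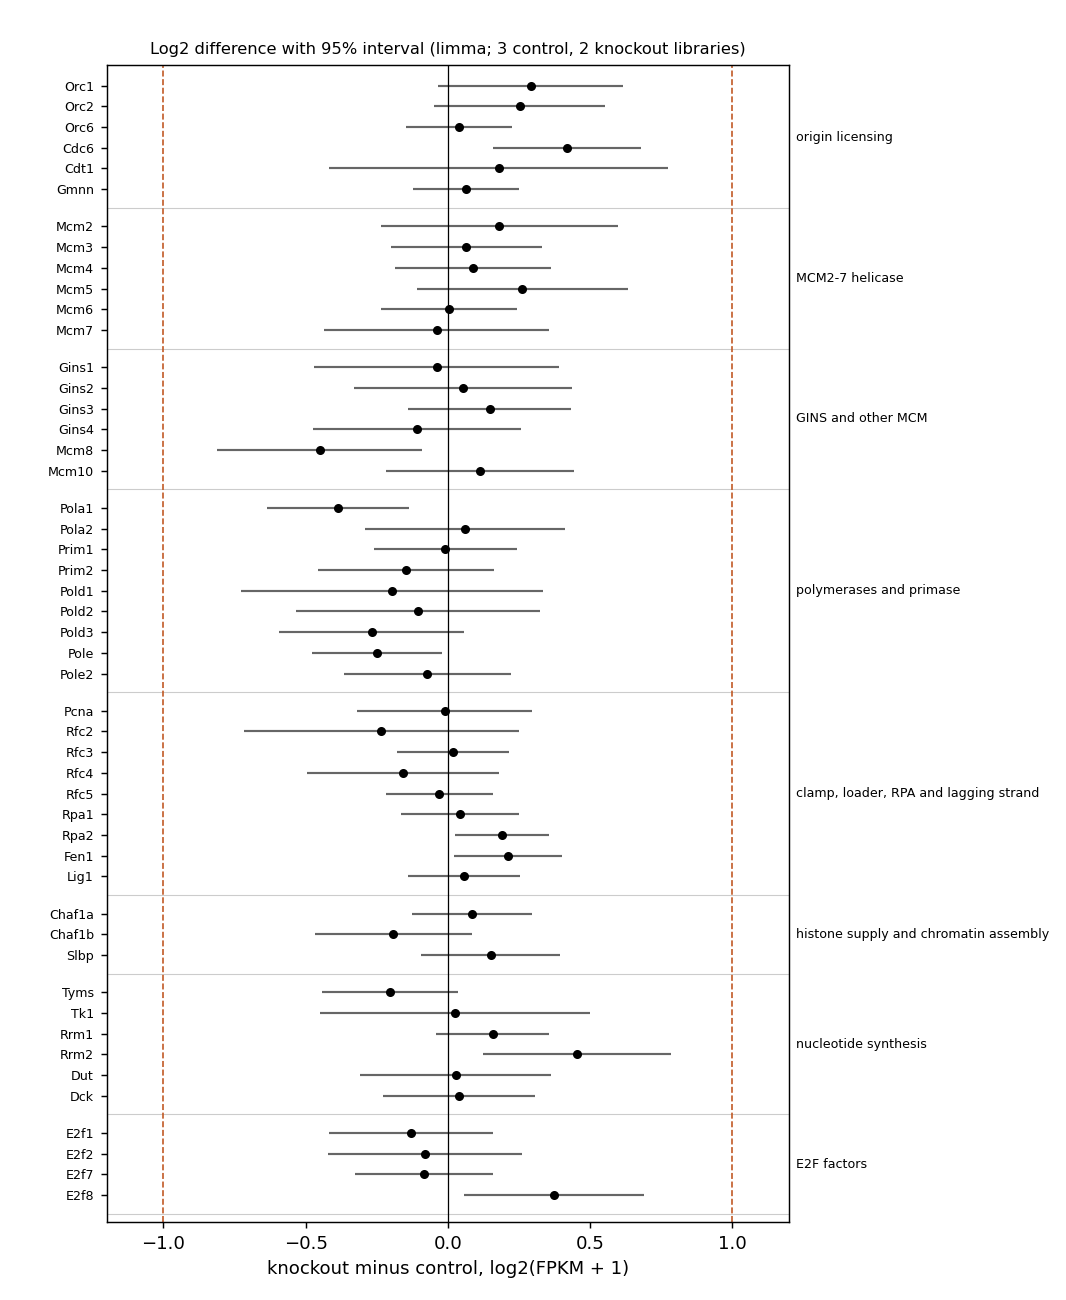
Difference of each member between knockout and control in log2(FPKM + 1) (horizontal axis, positive where knockouts are higher), with its 95% interval from limma over 3 control and 2 knockout libraries. Dashed lines mark 2-fold changes, and all 49 intervals lie between them.

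Ranges of the libraries overlapped for most members. Both knockouts lay above every control for 10 members (20.4%), against 22.9% of all genes, namely Orc1, Cdc6, Mcm5, Gins3, Rpa2, Fen1, Slbp, Rrm1, Rrm2 and E2f8. Both lay below every control for 5 members (10.2%), against 29.4% of all genes, namely Mcm8, Pola1, Pole, Chaf1b and Tyms.

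For these genes control replicate 1 was mostly the low library. It held the lowest of the 3 control values for 41 of 49 members (83.7%), against 49.3% of all genes, and the lowest of all 5 libraries for 33 members, against 32.4% of all genes. Its median log2 difference from the mean of controls 2 and 3 was -0.23 over the members and -0.06 over all genes. The geometric mean of the members was 45.3, 52.6 and 53.0 FPKM for the controls, and knockouts measured 49.9 and 51.7 FPKM, so the knockouts lay between control 1 and the other controls. For 33 members control 1 lay further from controls 2 and 3 than the knockout mean did, against 48.9% of all genes. Without control 1 the median difference of the members turned from 0.03 to -0.05, against -0.05 for all genes in that fit, and 12 members were called, of which 11 were lower and 1 higher. That is 24.5% of the members, against 29.8% of all genes called in that fit. In the lower direction it was 22.4% of members against 18.0% of genes, and in the higher direction 2.04% against 11.9%. With the share over both directions near the background, these calls are no result about the members as a set.

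**Figure D3:**
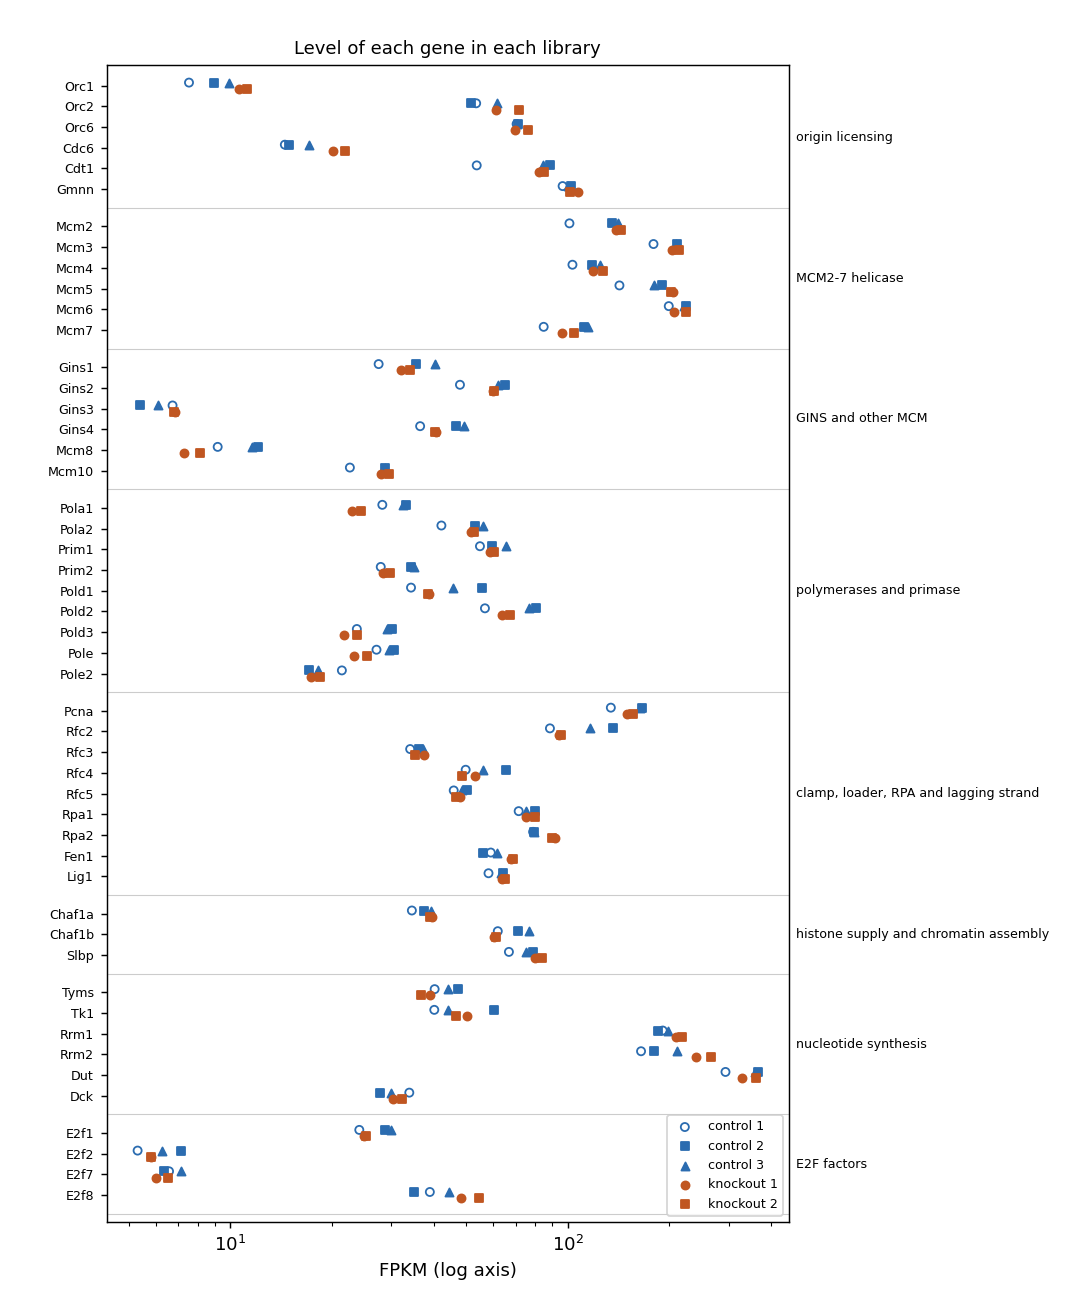
FPKM of each member (log axis) in the 3 control and 2 knockout libraries, grouped by role. The open circle of control 1 is the lowest of the 5 libraries for 33 members.

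Licensing genes had small positive differences, with a median of 0.22 over 6 members (0.12 without control 1), none called. Cdc6, the ATPase that recruits Cdt1 and the helicase to origins, stood at 14.5, 14.9 and 17.1 FPKM for the controls, and knockouts measured 20.1 and 21.9 FPKM. Both knockouts were above all controls, by a log2 difference of 0.42 ± 0.10 (SE), and limma gave an adjusted p of 0.0655, the smallest of the members. It passed after median-ratio scaling (adjusted p = 0.0465) and after the length and GC correction (adjusted p = 0.0348), and ranged up to 0.394 when a library was left out. Orc1, the largest subunit of the origin recognition complex, stood at 7.54, 8.93 and 9.92 FPKM across the controls, with knockout values of 10.6 and 11.2 FPKM, 0.29 ± 0.13 on the log2 scale (adjusted p = 0.204). These groups did not overlap, but control 1 and control 3 differed by more than control 3 and the lower knockout did. Gmnn, which encodes geminin, the inhibitor of Cdt1, had the highest mean of the group, at 96.5, 102.1 and 100.2 FPKM for the controls, and knockouts measured 107.0 and 101.3 FPKM, and the groups overlapped. Cdt1 is given after its values were seen: it stood at 53.7, 88.6 and 84.2 FPKM across the controls, with knockout values of 82.3 and 85.1 FPKM. Control 1 alone was low, and without it the log2 difference went from 0.18 to -0.05. As a ratio, Cdt1 over Gmnn was 0.557 in control 1 and 0.769 to 0.868 in the other 4 libraries. Orc2 and Orc6, the remaining licensing members, had differences of 0.25 and 0.04.

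The replicative helicase had the highest levels of any group, with a geometric mean of 128, 159 and 160 FPKM for the controls, and knockouts measured 155 and 162 FPKM. Its median difference was 0.08 over 6 members, and 0.002 without control 1. In each library the highest of Mcm2 to Mcm7 was only 1.92 to 2.35 times the lowest. Mcm6 had the highest mean, at 199.1, 223.9 and 220.7 FPKM across the controls, with knockout values of 206.8 and 223.9 FPKM, a difference of 0.01 ± 0.09 (adjusted p = 0.976). Mcm5 stood at 142.2, 190.7 and 179.6 FPKM for the controls, and knockouts measured 205.4 and 201.6 FPKM. Its groups did not overlap, but the difference of 0.26 ± 0.15 had an adjusted p of 0.291 and was 0.14 without control 1. Mcm2 stood at 101.1, 135.3 and 140.7 FPKM across the controls, with knockout values of 138.8 and 143.7 FPKM, with control 1 alone below the rest. Differences of Mcm3, Mcm4 and Mcm7 were 0.07, 0.09 and -0.04, and control 1 was the lowest control for all 6 helicase genes.

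Helicase activation genes and the other MCM genes had differences of both signs, with a median of 0.01 over 6 members. Without control 1 the median was -0.13 and 2 of the 6 were called lower, against 18.0% of all genes in that fit. Mcm8, a helicase subunit paralog that acts in homologous recombination rather than in licensing, stood at 9.17, 12.1 and 11.6 FPKM for the controls, and knockouts measured 7.30 and 8.13 FPKM, below every control. Its difference of -0.45 ± 0.14 (95% interval -0.81 to -0.09) was the largest negative one of the members, with an adjusted p of 0.107. Without control 1 the difference was -0.56 and the adjusted p 0.017, and over all settings the adjusted p ran up to 0.469. Relative to Mcm6, Mcm8 was at 0.046, 0.0542 and 0.0526 across the controls, with 0.0353 and 0.0363 for the knockouts. Of the GINS subunits, Gins4 stood at 36.5, 46.5 and 49.4 FPKM across the controls, with knockout values of 40.6 and 40.5 FPKM. The knockouts lay between control 1 and the other controls, and Gins4 was called lower only in the fit without control 1 (adjusted p = 0.0423, up to 0.942 in other settings). Gins2, with the highest mean of the group, stood at 47.9, 65.3 and 62.3 FPKM for the controls, and knockouts measured 60.1 and 60.3 FPKM, within the control range. Gins3, the lowest, stood at 6.74, 5.41 and 6.09 FPKM across the controls, with knockout values of 6.83 and 6.81 FPKM, where control 1 was nearest to the knockouts. Gins1 and Mcm10, a factor that helps to start the fork, had differences of -0.04 and 0.11.

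Polymerase and primase genes had mostly negative differences, with a median of -0.15 over 9 members, 8 of them negative and none called. Without control 1 the median was -0.26 and 5 of the 9 were called lower, against 18.0% of all genes in that fit. Pola1, the catalytic subunit of polymerase alpha, stood at 28.2, 33.1 and 32.4 FPKM for the controls, and knockouts measured 22.9 and 24.3 FPKM. Both knockouts were below every control, by -0.39 ± 0.10 on the log2 scale (95% interval -0.64 to -0.14, adjusted p = 0.071). The adjusted p was 0.0137 without control 1 and 0.0495 after quantile normalization, and the difference stayed between -0.46 and -0.30 over all settings, where the adjusted p ran up to 0.404. Its partner Pola2, the regulatory subunit, had a difference of 0.06. Pola1 over Pola2 was 0.667, 0.622 and 0.577 across the controls, with 0.442 and 0.46 for the knockouts, without overlap, as for Pola1 alone. Pole, the catalytic subunit of the leading strand polymerase, stood at 27.1, 30.6 and 29.5 FPKM across the controls, with knockout values of 23.2 and 25.4 FPKM, also without overlap (-0.25 ± 0.09, adjusted p = 0.142). Pole2, its second subunit, had a difference of -0.07, and control 1 held its highest value, 21.4 FPKM.

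The polymerase delta subunits showed how the call turned on control 1. Pold3 stood at 23.7, 30.2 and 29.1 FPKM for the controls, and knockouts measured 21.7 and 23.7 FPKM, where control 1 matched the higher knockout. Pold2 stood at 56.8, 80.3 and 76.7 FPKM across the controls, with knockout values of 63.6 and 67.5 FPKM, above control 1 and below the other controls. Pold1, the catalytic subunit, had a difference of -0.20 ± 0.21 and was not called with or without control 1. Prim2, the large subunit of primase, stood at 27.9, 34.3 and 35.1 FPKM for the controls, and knockouts measured 28.4 and 29.7 FPKM. Without control 1, Pola1, Pole, Pold2, Pold3 and Prim2 were lower with adjusted p-values of 0.0137 to 0.0414. With all libraries and no other scaling none of the 5 passed, and Pola1 did so after quantile normalization. Prim1, the small catalytic subunit of primase, had a difference of -0.01.

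At the clamp and the lagging strand the median absolute difference, 0.06 over 9 members, was the smallest of any role group. With the sign, the median was 0.02, and -0.02 without control 1. Pcna, the sliding clamp, stood at 134.1, 165.6 and 163.9 FPKM across the controls, with knockout values of 149.3 and 156.3 FPKM, a difference of -0.01 ± 0.12 (adjusted p = 0.963). Rfc2, a clamp loader subunit, stood at 88.5, 135.8 and 116.0 FPKM for the controls, and knockouts measured 94.3 and 95.5 FPKM. Its controls spread over more than the difference between groups, and it was called lower only without control 1 (adjusted p = 0.0422, up to 0.747 in other settings). Rpa2, a subunit of the protein that coats single-stranded DNA, had the smallest standard error, at 78.9, 79.6 and 79.5 FPKM across the controls, with knockout values of 91.5 and 90.0 FPKM. Both knockouts were higher, by 0.19 ± 0.06 (95% interval 0.03 to 0.36), with an adjusted p of 0.125 and, without control 1, of 0.043. The nuclease gene Fen1, which trims Okazaki fragments, stood at 59.1, 56.1 and 61.7 FPKM for the controls, and knockouts measured 67.9 and 69.0 FPKM, again without overlap (0.21 ± 0.07, adjusted p = 0.136). Lig1, the ligase that seals the fragments, and Rpa1 had differences of 0.06 and 0.04, and the loader genes Rfc3, Rfc4 and Rfc5 of 0.02, -0.16 and -0.03.

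The 2 chromatin assembly genes lay on opposite sides of 0, and with Slbp the median was 0.08, or 0.04 without control 1. Chaf1b, a subunit of the factor that places histones behind the fork, stood at 62.0, 71.0 and 76.8 FPKM across the controls, with knockout values of 60.4 and 61.4 FPKM. The knockouts were below all controls, with control 1 close to them, and the adjusted p was 0.302 with all libraries and 0.0381 without control 1. Chaf1a, the largest subunit, had a difference of 0.08, and Chaf1b over Chaf1a was 1.8 to 1.95 in the controls and 1.52 and 1.57 in the knockouts. Slbp, which binds the stem-loop of histone mRNA, stood at 66.9, 78.7 and 75.4 FPKM for the controls, and knockouts measured 79.8 and 83.7 FPKM (0.15 ± 0.10, adjusted p = 0.347).

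Nucleotide synthesis genes had a median of 0.03 over 6 members (0.02 without control 1). Rrm2, the S-phase subunit of ribonucleotide reductase, the enzyme that makes deoxynucleotides, stood at 164.8, 180.6 and 210.1 FPKM across the controls, with knockout values of 240.2 and 266.2 FPKM. Both knockouts were above every control and the difference of 0.46 ± 0.13 (95% interval 0.12 to 0.79) was the largest of the members, with an adjusted p of 0.0898. It passed only after the length and GC correction (adjusted p = 0.0478), and ran up to 0.45 when a library was left out. The large subunit gene Rrm1 had a difference of 0.16, and Rrm2 over Rrm1 was 0.862, 0.979 and 1.06 across the controls, with 1.15 and 1.22 for the knockouts. Tyms, which makes thymidylate, stood at 40.3, 47.2 and 44.2 FPKM for the controls, and knockouts measured 39.1 and 36.8 FPKM, below every control (-0.20 ± 0.09, adjusted p = 0.223, and 0.0467 without control 1). Dut, which removes dUTP, had the highest level of all members, at 293.2, 365.6 and 357.5 FPKM across the controls, with knockout values of 328.4 and 360.0 FPKM, with full overlap. The salvage kinase genes Tk1 and Dck had differences of 0.03 and 0.04.

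The 4 E2F genes had differences of both signs, with a median of -0.08 (-0.14 without control 1). E2f8, one of the atypical repressors, stood at 39.0, 35.1 and 44.4 FPKM for the controls, and knockouts measured 48.4 and 54.4 FPKM, above every control (0.37 ± 0.12, adjusted p = 0.119, and 0.0851 to 0.52 over the alternatives). Its paralog E2f7 had a difference of -0.08, so that E2f8 over E2f7 was 5.53 to 6.21 in the controls and 8.06 and 8.33 in the knockouts. E2f1, the best known activator, stood at 24.1, 28.8 and 29.9 FPKM across the controls, with knockout values of 24.9 and 25.2 FPKM, next to control 1, and was called lower only without that library (adjusted p = 0.042, up to 0.785 in other settings). E2f2 had a difference of -0.08. All ratios of 1 member over another, here and above, were picked after the values were seen and carry no test.

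**Figure D4:**
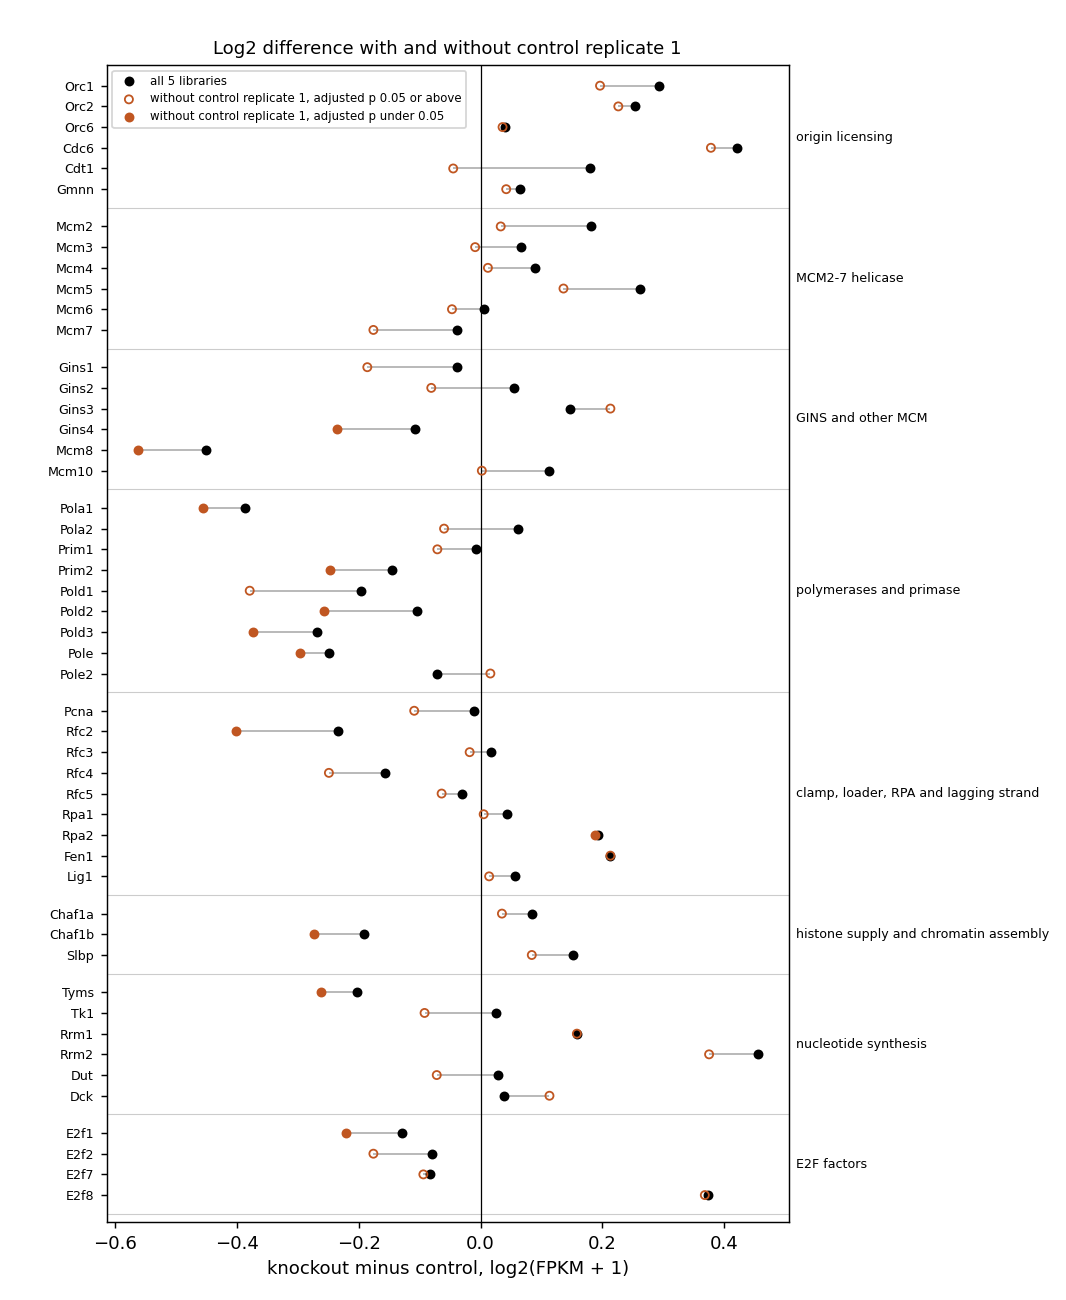
Log2 difference of each member, knockout minus control, with all 5 libraries (black) and without control replicate 1 (orange, filled where the limma adjusted p is under 0.05). Of 49 members, 12 are filled, 11 of them to the left of 0, and most orange points lie to the left of the black ones.

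Related genes outside the 49 gave few calls. Of all genes, 9.79% were called and 29.8% had an unadjusted limma p under 0.05. Among 37 other replication genes none was called by limma (5 at an unadjusted p under 0.05), with a median of -0.03, and without control 1 it was 1 higher and 8 of 37 lower, against 11.9% and 18.0% of all genes in that fit. Among 32 tested genes of nucleotide synthesis other than the members none was called either (4 at an unadjusted p under 0.05), with a median of 0.06, and 7 of 32 were lower without control 1, where 18.0% of all genes were. In these 2 lists the lowest and highest differences were -0.60 and 0.43. Of 13 tested genes for other E2F factors, DP partners and pocket proteins, 2 were called, both lower, against 5.97% of all genes called lower. With so few genes this count is no result about the list. Tfdp2, which encodes a DP partner of E2F factors, fell from 13.9, 12.5 and 12.7 FPKM to 7.92 and 7.50 FPKM, a log2 difference of -0.68 (limma adjusted p = 0.0192). E2f5, a factor that works with pocket proteins in repression, fell from 5.88, 4.80 and 5.35 FPKM to 3.22 and 3.40 FPKM, by -0.56 on the log2 scale (adjusted p = 0.0469). Both were also called without control 1, with adjusted p-values of 0.00929 and 0.0266.

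Mitosis genes, the next set expressed in the cycle, had a median of 0.13 over 32 genes. Of the 32, 1 was called higher and 1 lower, against 3.82% and 5.97% of all genes. Cdc20, which activates the anaphase-promoting complex, rose from 76.9, 93.8 and 97.3 FPKM to 187.9 and 176.1 FPKM (limma adjusted p = 0.0176). Cdc25b, a phosphatase that activates mitotic kinases, fell from 13.3, 13.9 and 13.2 FPKM to 9.62 and 9.16 FPKM (adjusted p = 0.0295). Without control 1, 7 of 32 mitosis genes were higher and 3 of 32 lower, and of the replication and nucleotide genes 1 of 49 was higher and 11 of 49 lower. Of all genes in that fit 11.9% were higher and 18.0% lower. The difference between these sets was not tested.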

How the data were processed

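RNA of 5 libraries was sequenced with a stranded mRNA kit, per the labels' protocols. The deposited values are FPKM per Ensembl gene, 1 file per library. Build mm9 and the tools CASAVA 1.8.2, GSNAP, SAMtools and Cuffdiff are recorded, per the submitters' processing notes. Whether counting used strand, and which annotation it used, is not given in the sources used here. Values of 999999999, found in 16 genes, were treated as failed and those genes left out. The filter kept 11780 genes that reached 1 FPKM in 2 or more libraries. They were fitted as log2(FPKM + 1) by limma 3.58.1 (R 4.3.3), with the trend option and p-values adjusted over all of them. This scale understates changes of low genes. The files hold no counts, so depth is unknown and no count test was run. The limma step was tested on simulated data.

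The members and lists were chosen with earlier results of these data known. All members were named; values in every library were given for those called, those called without control replicate 1, and in each role group the 2 with the largest absolute difference and the one with the highest mean; no member with a control ratio over 2 was found. GENCODE M21 gave current symbols for 26622 gene IDs and the overlaps. Alternatives changed the pseudocount, filter, scaling, trend, block and libraries; a loess fit that removes trends with length and GC was chosen after seeing the data. No pair of replicates held equal values for more than 45 of the genes tested.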

Additional observations from a re-analysis of the deposited data

How the results depend on the processing

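The count of 0 members called held with pseudocounts of 0.1 and 5, with no filter, with a mean of at least 5 FPKM, without the intensity trend and with the replicate block. Median-ratio scaling called 1 higher, quantile normalization 1 lower and the length and GC correction 2 higher. Leaving out 1 library gave 0 to 1 higher and 0 to 11 lower, both maxima without control replicate 1. The median difference of the members ran from -0.047 (without control 1) to 0.071 (length and GC correction), within 1 SD of the medians of the controls (0.135). This SD comes from the same members in the 3 controls and is widened by the low control 1. It therefore cannot show that the move without control 1 is small. Over all genes, 450 were higher and 703 lower, against 597 and 621 after median-ratio scaling, 846 and 784 with length and GC corrected, 238 and 259 with no filter, 12 and 43 with the replicate block, 1398 and 2118 without control 1, 45 and 66 without control 2, 70 and 134 without control 3, 3 and 4 without knockout 1, and 0 and 0 in limma without knockout 2 (1669 genes at an unadjusted p under 0.05).

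Members near 0 changed sign. With quantile normalization these were Dut (-0.016), E2f2 (0.040), E2f7 (0.035), Gmnn (-0.004), Mcm6 (-0.042) and Tk1 (-0.013). After median-ratio scaling they were Pcna (0.027), Prim1 (0.029) and Rfc5 (0.007), and the length and GC correction turned the same 3, to 0.021, 0.045 and 0.006. The replicate block, whose numbers 1 and 2 are shared by both groups, gave Gins1 0.080, Mcm7 0.040, Pcna 0.035, Prim1 0.058 and Tk1 -0.024; it changed no call of a member. Deviations of same-numbered libraries from their group means correlated at 0.037 and 0.0123. With 2 knockouts these deviations are mirror images of each other, so the check cannot decide whether the numbers pair libraries. With 1 library left out, the ranges that crossed 0 were Cdt1 -0.045 to 0.310, Dck -0.024 to 0.113, Dut -0.072 to 0.094, E2f2 -0.176 to 0.009, Gins1 -0.186 to 0.080, Gins2 -0.081 to 0.138, Mcm3 -0.009 to 0.107, Mcm6 -0.051 to 0.063, Mcm7 -0.176 to 0.040, Orc6 -0.024 to 0.103, Pcna -0.109 to 0.042, Pola2 -0.060 to 0.140, Pole2 -0.137 to 0.016, Prim1 -0.071 to 0.058, Rfc3 -0.026 to 0.061, Rpa1 -0.001 to 0.086 and Tk1 -0.092 to 0.195. The cause of these changes was not tested. A fit with 1 knockout library takes that library to vary like the controls.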
